A study of Arabidopsis thaliana with 12 samples.

Results

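The experiment described here set tagged RNA made with the enzyme ADPRC against RNA that went through the same enrichment without it. It comprised 6 of the 12 libraries of the series: 3 of enriched poly(A) RNA with ADPRC and 3 of enriched poly(A) RNA without ADPRC, chosen by their labels. All 6 came from seedlings of Arabidopsis thaliana, accession Col-0, 12 days old and grown on plates without any special treatment, and both groups share the selection for poly(A) RNA and for the tag. NAD tagSeq reads single RNA molecules by direct Nanopore sequencing, and reads that carry the synthetic tag RNA were tabulated apart from all reads of a library. The labels give no line, mutant or tissue other than the whole seedling, and do not say whether replicates were separate cultures or how many seedlings were pooled, so the p-values below reflect no more than how far these libraries lie apart, and that spread may be technical. The 3 libraries with ADPRC held 1175516 to 1233999 reads, of which 174360 to 281028 (14.1% to 23.9%) were tagged. The 3 without ADPRC held 390009 to 948433 reads, of which 513 to 2082 (0.132% to 0.224%) were tagged.

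Most eukaryotic messenger RNAs begin with a 7-methylguanosine cap, and some instead begin with NAD, the nicotinamide coenzyme, built in as the first nucleotide. ADPRC, adenosine diphosphate ribosylcyclase, replaces the nicotinamide of such an RNA with an alkyne that a tag can be joined to, while the usual cap is left as it is. A direct RNA read runs from the poly(A) tail towards the start of the transcript, where the tag sits. In a green seedling much of the messenger RNA encodes the chloroplast's light reactions, in which photosystems I and II and their antenna proteins harvest light, and the Calvin cycle, in which Rubisco fixes carbon. Ribosomal proteins form another abundant class.

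Which genes held more tagged RNA than their abundance would give was asked by setting each gene's part of the tagged reads with ADPRC against its part of all reads without ADPRC. Both parts are given in CPM, a gene's reads scaled to the same total in every library. CPM of tagged reads (tagged CPM) are scaled to the tagged reads of a library and CPM of all reads to all its reads, so that the log2 ratio, called excess below, is 0 where a gene holds the same part of both. Abundance was thus read in libraries made without the enzyme, although these too had gone through enrichment. Of the 2523 genes with a mean of at least 50 CPM of all reads in the 6 libraries, 383 (15.2%) were called higher and 844 (33.5%) lower (limma, adjusted p under 0.05), and the median excess was -0.30. The split moved with the scaling: it was 522 higher and 696 lower with each library centred on its median gene (median -0.09), 542 and 637 by DESeq2 on recovered reads (median -0.05), and 793 and 499 relative to a trend on abundance (median 0.24). Tagged profiles of the 3 libraries with ADPRC agreed more closely among themselves (Spearman's rho 0.905 to 0.924 across these genes) than with all reads without ADPRC (0.576 to 0.636), where genes are not independent replicates. In the plot of tagged RNA against abundance the small subunit genes of Rubisco lay above the line of equal parts and the methionine cycle genes below it.

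**Figure D1:**
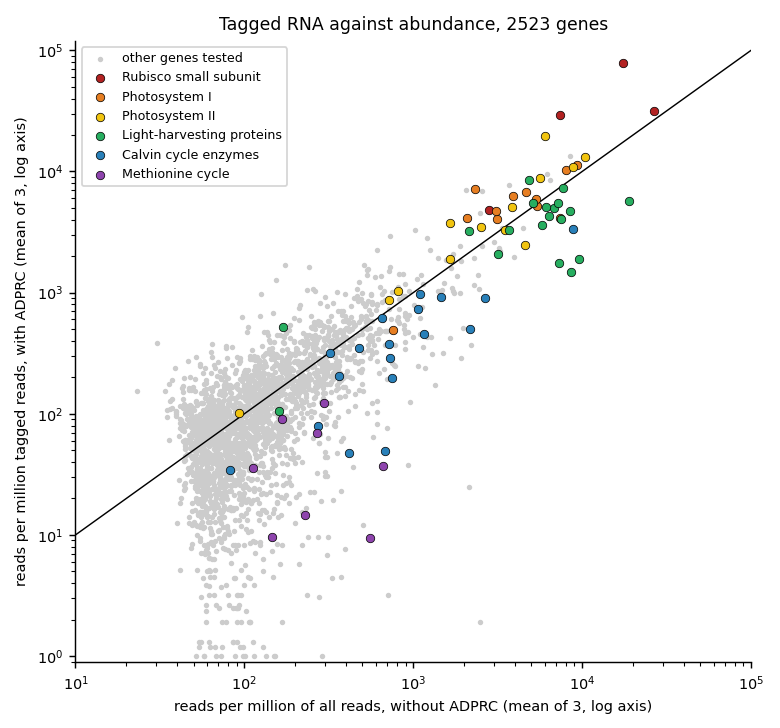
Each point is 1 of the 2523 genes tested, by its mean CPM of all reads in the 3 libraries without ADPRC and its mean tagged CPM in the 3 libraries with ADPRC, both on log axes, with the 13 genes at 0 drawn at 1. The line marks equal parts, and 383 genes were called above it and 844 below it.

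By function, 26 lists of genes were followed, of which 25 had a tagged read in every library with ADPRC. Here the excess was taken within a library, as the log2 of a list's part of its tagged reads over its part of its own reads. In all 3 libraries 11 lists lay above 0 and 13 below it, and the proteasome list changed sign. The small subunit of Rubisco stood highest, with an excess of 0.89, 0.89 and 1.11 in replicates 1, 2 and 3. The metallothioneins, small proteins that bind metals, followed with 0.59, 0.61 and 0.70. Photosystem II had 0.46, 0.42 and 0.57, the 40S ribosomal proteins 0.46, 0.30 and 0.41, electron transport and ATP synthase 0.32, 0.38 and 0.37, and photosystem I 0.30, 0.33 and 0.38. At the other end stood the HSP70 and HSP90 chaperones with -3.34, -3.01 and -2.57 and the methionine cycle with -2.46, -1.99 and -2.53.

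**Figure D2:**
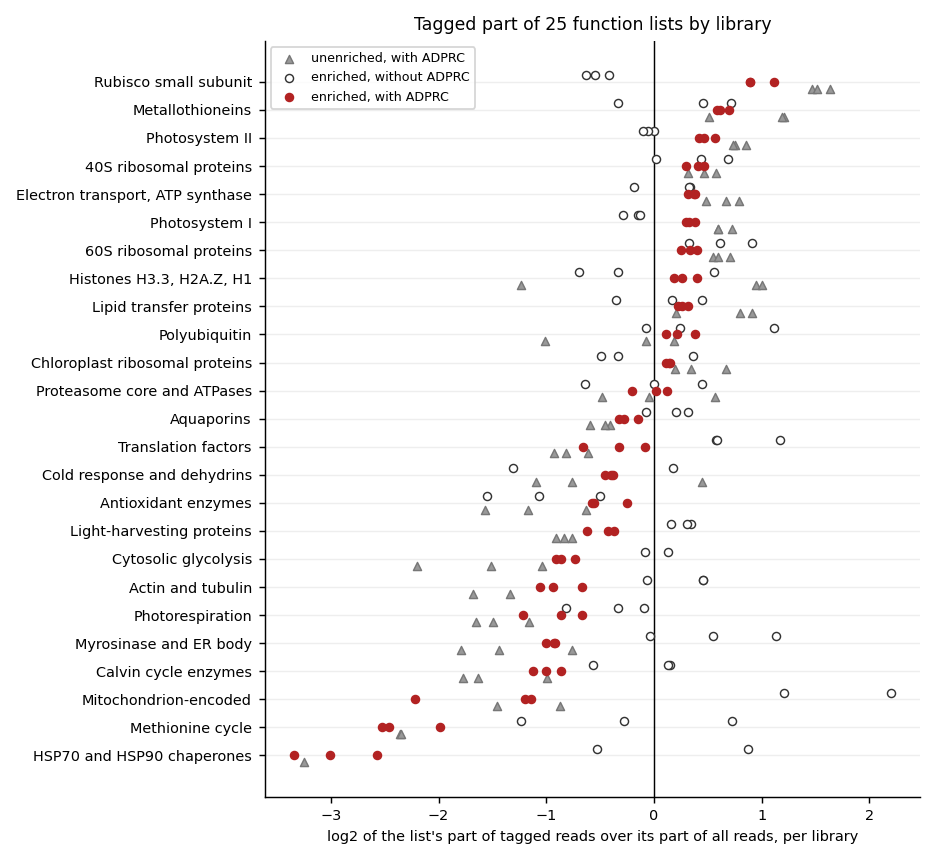
Each row is a list of genes, and each point a library: filled circles are enriched libraries with ADPRC, open circles enriched libraries without it and triangles unenriched libraries with it (3 each, a point missing where no tagged read was found). The axis is the log2 of the list's part of tagged reads over its part of all reads of that library, and 11 lists have all 3 filled circles above 0.

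The few tagged reads of the libraries without ADPRC give the background of the same measure. Of the 21 lists with a tagged read in each of those libraries, 10 had values that did not overlap between the groups, 3 of them higher with ADPRC and 7 lower. The 7 were light harvesting, Calvin cycle enzymes, translation factors, the cytoskeleton, the methionine cycle, aquaporins and myrosinase with ER body genes. Fewer tagged reads stand behind some of these, with 1, 1 and 10 for the methionine cycle, 2, 4 and 6 for the cytoskeleton and 6, 8 and 10 for myrosinase with ER body genes, so these non-overlaps rest in part on 1 or 2 reads. Lower too were the genes in no list, which had -0.23, -0.21 and -0.24 with ADPRC and -0.10, -0.11 and -0.07 without it. The 3 were the small subunit of Rubisco, which had -0.54, -0.42 and -0.63 without ADPRC, photosystem II with 0.00, -0.05 and -0.10 and photosystem I with -0.15, -0.13 and -0.28. Their background values rest on 18, 47 and 77 tagged reads for Rubisco, 27, 59 and 88 for photosystem II and 26, 64 and 85 for photosystem I. By replicate number, 4 lists were higher with ADPRC in 3 of 3 pairs, antioxidant enzymes being the fourth, on 1, 4 and 5 background reads, and 8 were lower in 3 of 3, photorespiration among them on 4, 12 and 21. The other lists above 0 overlapped their background, among them the 40S list with 0.69, 0.02 and 0.44 and the 60S list with 0.91, 0.61 and 0.33 against 0.40, 0.25 and 0.33 with ADPRC. In unenriched libraries with ADPRC, which hold few tagged reads, 9 of the 11 lists above 0 were again above 0 in all 3 libraries, the exceptions being the histone and polyubiquitin lists, and 8 of the 13 lists below 0 were below 0 in all 3. The other 5 had a library with no tagged read or a value above 0. There the small subunit of Rubisco had 1.47, 1.51 and 1.63, photosystem II 0.86, 0.75 and 0.73 and photosystem I 0.73, 0.59 and 0.60.

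The genes of the small subunit of Rubisco, the enzyme that fixes carbon dioxide, held 14.4% ± 0.607 of tagged reads with ADPRC and 5.40% ± 0.308 of all reads without it (SD, n = 3 each). RBCS3B (AT5G38410) had 81124, 78340.1 and 76308 tagged CPM in the 3 libraries with ADPRC, against 16879, 17713 and 17449.8 CPM of all reads without it (log2 excess 2.18, SE 0.15, adjusted p = 3.26e-06). RBCS2B (AT5G38420) had 30452, 24934 and 32966 against 7646, 6776 and 7789.7 (log2 excess 1.98, adjusted p = 7.76e-06). In both genes every tagged value lay above every value of abundance. RBCS1A (AT1G67090), the most abundant of the 4 copies, had 34413, 33049 and 27340 against 23812, 26728 and 28974, and the groups overlapped (log2 excess 0.25, adjusted p = 0.227). The fourth copy, RBCS1B (AT5G38430), had a log2 excess of 0.77 (adjusted p = 0.00332), so that 3 of the 4 were called higher, beside 15.2% of all genes tested, and 0 lower, beside 33.5%. Of the reads of RBCS3B in libraries with ADPRC 45.9% ± 6.78 were tagged (SD, n = 3), and of those of RBCS1A 25.3% ± 7.36. The copies are close in sequence, so the split of reads between them is uncertain.

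Of photosystem II, which splits water, 13 of 13 members passed the filter, of which 3 were called higher and 1 lower, with a median log2 excess of 0.32, beside 15.2% higher and 33.5% lower and a median of -0.30 over all genes. The list held 7.44% ± 0.516 of tagged reads with ADPRC and 5.01% ± 0.418 of all reads without it. PSBW (AT2G30570), a small subunit of the complex, had 21948, 17852 and 19328 tagged CPM against 5961, 6423 and 5615 CPM without ADPRC (log2 excess 1.71, SE 0.15, adjusted p = 1.52e-05), and no value overlapped. PSBQA and PSBP-1, extrinsic subunits on the water-splitting side, had a log2 excess of 1.16 (adjusted p = 0.000194) and 0.63 (adjusted p = 0.00650). PSBO1, which stabilises the manganese cluster there, went the other way at -0.90 (adjusted p = 0.000866), while its copy PSBO2 was not called at 0.36 (adjusted p = 0.112). The 2 most abundant members, PSBX with 17696, 11177 and 10582 against 11438, 11021 and 8512 and PSBR with 12486, 9583 and 10553 against 9087, 9608 and 7718, overlapped between the groups and were not called. Counts of members called for excess in the lists below stand beside the same 15.2% and 33.5%.

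Photosystem I, which passes electrons to ferredoxin, had 12 of 12 members that passed the filter, with a median log2 excess of 0.36. Of these, 5 were called higher and 2 lower, beside 15.2% and 33.5% over all genes. PSAD-2, a subunit at the ferredoxin docking site, had the highest log2 excess of 1.54 (adjusted p = 0.000674), whereas its copy PSAD-1 had -0.06 (adjusted p = 0.774). Another pair of copies differed in the same way, with PSAH-1 at 0.97 (adjusted p = 0.000742) and PSAH2 at 0.36 (adjusted p = 0.0686). In a further pair PSAE-1 was not called at 0.16 (adjusted p = 0.434) and PSAE-2 was called lower at -0.64 (adjusted p = 0.0275). The differences between copies were not tested. PSAF (AT1G31330), at the docking site of plastocyanin, had 3501, 5316 and 3487 tagged CPM against 7377, 8319.8 and 6415 without ADPRC, lower throughout (log2 excess -0.87, adjusted p = 0.00439). PSAO with 12433, 10628 and 10897 against 9354, 10749 and 7743 and PSAG with 11768, 10326 and 8551 against 9389.5, 8322 and 6416 overlapped and were not called. In the electron transport and ATP synthase list 11 of 11 members passed the filter, of which 2 were called higher and 1 lower, with a median log2 excess of 0.27. The count of higher members is near the 15.2% over all genes. Higher in this list were the ferredoxin genes FED A at 0.62 (adjusted p = 0.00999) and FD1 at 0.81 (adjusted p = 0.00291), and lower was FNR1, for the reductase that ferredoxin feeds, at -1.13 (adjusted p = 0.00529).

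Summed over the list, the genes of the antenna proteins that harvest light had less tagged RNA than their abundance would give, though single members differed. The list had an excess of -0.62, -0.42 and -0.37 in libraries with ADPRC and 0.16, 0.35 and 0.31 without it, with no overlap, and -0.83, -0.91 and -0.76 in unenriched libraries. Its part was 7.35% ± 1.09 of tagged reads with ADPRC and 12.0% ± 0.694 of all reads without it. At the level of genes, 19 of 21 members passed the filter, of which 3 were called higher and 10 lower, with a median log2 excess of -0.57. CAB1 (AT1G29930), the most abundant, had 5113, 5610.3 and 6332 tagged CPM against 19089, 20503 and 17449.8 without ADPRC (log2 excess -1.74, SE 0.16, adjusted p = 1.49e-05). CAB2 had 1519, 1987 and 2156 against 8472, 10152 and 9928 and CAB3 1224, 1527 and 1698 against 8751, 9384 and 7621, with a log2 excess of -2.34 (adjusted p = 4.49e-06) and -2.54 (adjusted p = 3.26e-06). In all of these genes each tagged value was below each value of abundance. Together with LHB1B2 at -2.04 (adjusted p = 3.64e-06) these are copies of LHCB1, the main antenna protein of photosystem II, and LHB1B1, a further copy, was not called at -0.25 (adjusted p = 0.616). The 3 members called higher were Lhca5 at 1.59 (adjusted p = 0.000263) and LHCA2 at 0.81 (adjusted p = 0.00119), of the photosystem I antenna, and LHCB2.3 at 0.57 (adjusted p = 0.0418). LHCA1 at -0.87 (adjusted p = 0.00490) and LHCA3 at -0.46 (adjusted p = 0.0373) were called lower, so the photosystem I antenna had no single direction. Reads of close CAB copies, too, cannot be assigned with certainty.

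Enzymes of the Calvin cycle, which turns fixed carbon into sugar, lay below their abundance. The list had an excess of -1.12, -0.87 and -1.0 with ADPRC and -0.57, 0.15 and 0.13 without it. Of these genes, 18 of 18 members passed the filter, of which 0 were called higher and 13 lower, with a median log2 excess of -1.36. RCA (AT2G39730), for the activase of Rubisco, had 3380.4, 3459 and 3229 tagged CPM against 10228, 7237 and 8981 without ADPRC (log2 excess -1.38, SE 0.17, adjusted p = 9.35e-05). The aldolase genes FBA2, with 1060.4, 942 and 717 against 2854, 1947 and 3197, and FBA1, with 587, 436 and 482 against 2687, 1498 and 2321, had a log2 excess of -1.54 and -2.07, both called lower. Photorespiration, which recycles the product of Rubisco's reaction with oxygen, had a list value of -1.22, -0.66 and -0.86, and its background of -0.82, -0.10 and -0.34 overlapped. There 17 of 19 members passed the filter, of which 1 was called higher and 11 lower, with a median log2 excess of -1.51. GGT1 (AT1G23310), an aminotransferase of the peroxisome, had 246, 298 and 327 against 2041, 1870.2 and 1849 (log2 excess -2.72, SE 0.18, adjusted p = 3.26e-06). CAT2, a catalase, had a log2 excess of -2.05 (adjusted p = 9.35e-05) and GOX1, a glycolate oxidase, -1.53 (adjusted p = 0.000105). Relative to the trend on abundance and gene span described below, CAT2 (-0.35), GOX1 (-0.21) and FBA2 (-0.40) were no longer called. GDCH, for the small H protein of glycine decarboxylase, was the one called higher at 0.90 (adjusted p = 0.00180), while GLDP1 and GLDP2, for the large P protein of that complex, were at -4.66 and -4.73, both called lower.

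**Figure D3:**
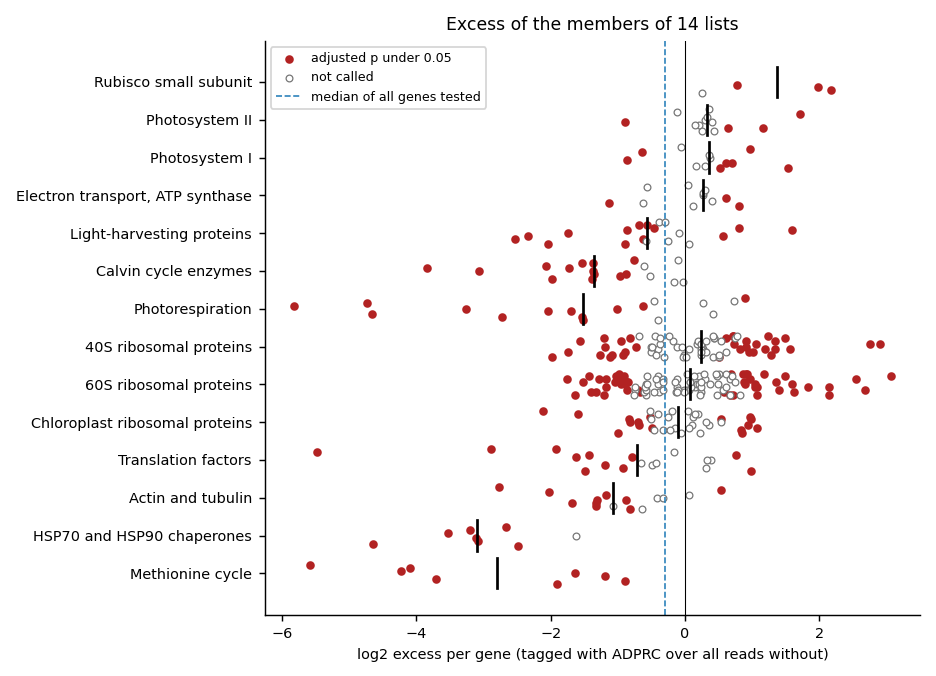
Each point is a gene that passed the filter, by its log2 excess of tagged RNA with ADPRC over all reads without it, filled where called and open where not. Black bars are list medians (1.38 for Rubisco's small subunit and -2.81 for the methionine cycle), and the dashed line is the median of all 2523 genes, -0.30.

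Ribosomal protein genes spread widely in both directions. For the 40S subunit 72 of 85 members passed the filter, of which 20 were called higher and 13 lower, with a median log2 excess of 0.24, and for the 60S subunit 105 of 126 members passed the filter, of which 26 were called higher and 22 lower, with a median log2 excess of 0.08. Over all genes tested 15.2% were called higher and 33.5% lower. Single genes of the 40S list ran from -1.98 to 2.91 and of the 60S list from -1.76 to 3.06. These lists were drawn up by locus number, and 20 of the 85 and 23 of the 126 members have a name in the gene table used. At the upper end AT3G04840 of the 40S list had 1209.8, 1598 and 2116 tagged CPM against 228, 180.5 and 312 without ADPRC (log2 excess 2.76, SE 0.25, adjusted p = 1.85e-05). AT1G48830 of the same list had 1099.5, 828 and 981 against 133, 115 and 129.7, and AT4G14320 of the 60S list 1110.2, 1519 and 1204 against 113, 149.8 and 196. RPL24A (AT2G36620) had 591, 510.4 and 791 against 69.2, 96.0 and 127 (log2 excess 2.68, adjusted p = 2.69e-05). In each of these the lowest tagged value was above the highest value of abundance. At the lower end stood RPS10B of the 40S subunit at -1.98 (adjusted p = 0.00161) and AT4G27090 of the 60S list at -1.76 (adjusted p = 0.000908).

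The most abundant ribosomal genes are given next. AT5G15200 had a log2 excess of -0.43 (adjusted p = 0.123), UBQ5 of -0.38 (adjusted p = 0.161) and RPS15A of 0.23 (adjusted p = 0.377) in the 40S list, none of them called. In the 60S list emb2171 (AT3G04400) had 4505, 2242 and 3143 against 1138, 937 and 1014 and was called higher at 1.62 (adjusted p = 0.000263), whereas AT1G01100 was not called at -0.58 (adjusted p = 0.0736). Ribosomal proteins of the chloroplast, encoded in the nucleus, had 36 members, all of which passed the filter. Of these, 7 were called higher and 9 lower, beside 15.2% and 33.5% over all genes. Their summed excess was above 0 (0.12, 0.14 and 0.15) while the median of members was below it (-0.10), so the list has no single direction. Translation factors had an excess of -0.08, -0.33 and -0.66 with ADPRC and 1.17, 0.58 and 0.59 without it, and 18 of 23 members passed the filter, of which 2 were called higher and 9 lower, with a median log2 excess of -0.72. LOS1, for elongation factor 2, was the lowest at -5.47 (adjusted p = 1.84e-06). AT5G60390 of that list had 121, 133 and 120.4 against 950.2 ± 161 (SD, n = 3) (log2 excess -2.88, adjusted p = 3.26e-06). FBR12, for initiation factor 5A, was not called at 0.39 (adjusted p = 0.0618). TCTP, a translationally controlled tumour protein homologue, varied between replicates, with 6572, 2462 and 1296 against 5813, 3942 and 3570.1, and was not called.

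All 8 genes of the methionine cycle, which supplies the methyl donor S-adenosylmethionine, passed the filter and were called lower, with a median log2 excess of -2.81. ATMS1 (AT5G17920), a methionine synthase, had 7.12, 3.93 and 17.2 tagged CPM against 449, 499 and 706 without ADPRC (log2 excess -5.59, SE 0.39, adjusted p = 3.26e-06). HOG1 (AT4G13940), an S-adenosylhomocysteine hydrolase, had 24.9, 51.0 and 34.4 against 754, 526 and 698 (log2 excess -4.09, adjusted p = 3.26e-06). MTO3, an S-adenosylmethionine synthetase, had 121, 126 and 120.4 against 251, 227 and 405, with 1 value of abundance well above the rest (log2 excess -1.20, adjusted p = 0.00282). The list made up 0.0388% ± 0.00421 of tagged reads with ADPRC and 0.243% ± 0.0441 of all reads without it. Of the HSP70 and HSP90 chaperones 8 of 14 members passed the filter, of which 0 were called higher and 7 lower, with a median log2 excess of -3.10. HSC70-1 (AT5G02500) had 85.4, 70.7 and 74.6 against 785, 538 and 765 (log2 excess -3.11, SE 0.22, adjusted p = 3.46e-06), and of its reads with ADPRC 2.66% ± 0.852 were tagged.

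Cytosolic glycolysis had an excess of -0.87, -0.73 and -0.90, and 10 of 13 members passed the filter, of which 0 were called higher and 9 lower, with a median log2 excess of -1.36. Its most abundant member, GAPC2, for glyceraldehyde-3-phosphate dehydrogenase, had 1188, 1021 and 952 against 1508, 1386 and 1548 and was called lower by a small margin (log2 excess -0.49, adjusted p = 0.0272), and its sign turned under the trends on abundance or gene span. Actin and tubulin genes had -1.06, -0.67 and -0.94 against 0.46, 0.45 and -0.06 without ADPRC, and 15 of 18 members passed the filter, of which 1 was called higher and 9 lower, with a median log2 excess of -1.07. ACT7 was the one called higher, with 374, 373 and 413 against 246, 265 and 287 (log2 excess 0.54, adjusted p = 0.0332), while its relative ACT2 was lower with 278, 232 and 149 against 495, 392 and 582 (log2 excess -1.17, adjusted p = 0.00362). Myrosinase and ER body genes, which belong to the mustard oil defence, had -1.0, -0.92 and -0.93 against 1.13, 0.55 and -0.04, and 8 of 9 members passed the filter, of which 0 were called higher and 7 lower, with a median log2 excess of -1.85. PYK10 (AT3G09260), a beta-glucosidase of ER bodies, had 377, 549.6 and 591 against 2195, 1699 and 1989.6 (log2 excess -1.97, adjusted p = 3.67e-05).

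Metallothionein genes made up 1.27% ± 0.0635 of tagged reads with ADPRC and 0.769% ± 0.0382 of all reads without it. MT2B (AT5G02380) had 8263, 7444 and 7369.8 tagged CPM against 3320.4, 3902 and 3793 without ADPRC (log2 excess 1.07, SE 0.15, adjusted p = 0.000229), and MT2A had 2156, 1453 and 1055 against 492, 578 and 548 (log2 excess 1.46, adjusted p = 0.000623). MT3 had 2231, 3357 and 2277 against 3274, 3159 and 2599, overlapped and was not called, so that 2 of the 4 that passed the filter were higher and 0 lower. Of 4 polyubiquitin genes UBQ11 and UBQ14 were called higher, UBQ11 at 1.11 (adjusted p = 0.00208), and UBQ10, the most abundant, was not called at 0.25 (adjusted p = 0.290). Of the aquaporins, water channels, 15 of 18 members passed the filter, of which 2 were called higher and 5 lower, with a median log2 excess of -0.49, shares close to the 15.2% and 33.5% over all genes. There the tonoplast channel DELTA-TIP was higher at 0.86 (adjusted p = 0.00239) and the plasma membrane channel PIP1B lower at -0.98 (adjusted p = 0.00150). Antioxidant enzymes had 0 higher and 2 lower of 6, the lower ones being the catalase CAT3 at -1.53 (adjusted p = 0.000974) and the superoxide dismutase FSD1 at -0.94 (adjusted p = 0.00475), both of which turned sign relative to the trend on abundance and gene span (0.48 and 0.35, neither called). Lipid transfer proteins had 2 and 2 of 7, histones 2 and 0 of 6, cold response and dehydrin genes 1 and 1 of 7, and the proteasome 0 and 2 of 16, higher and lower in that order.

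Transcripts of the organelles begin and end differently from nuclear messenger RNA. Of the 68 plastid-encoded genes, tagged reads in libraries with ADPRC were found for 1, ATCG00950, which had 2 in replicate 1. ATCG01180, at 108, 115 and 118 CPM without ADPRC, had none, at least 26.9-fold less than its abundance against a floor of 3 tagged reads over the 3 libraries. These 2 were the only plastid-encoded genes that passed the filter, both called lower. They need not stand for the other plastid-encoded genes. The gene table used gives no RNA type for organelle genes, so it does not tell whether those named here are messenger or ribosomal RNA. Whether reads can be told apart between ATCG00950 and ATCG01180 was not tested. Mitochondrion-encoded genes had an excess of -1.14, -1.20 and -2.22 in the 3 libraries with ADPRC, where 10.9, 9.09 and 3.04% of their reads were tagged. ATMG00020 had 10.7, 3.93 and 5.74 tagged CPM against 318, 265 and 337 without ADPRC (log2 excess -5.03, SE 0.34, adjusted p = 3.26e-06), and ATMG00030 had no tagged read, at least 31.7-fold less than its abundance. These and ATMG01390 were the only members that passed the filter, all 3 called lower. Relative to all reads of a library with ADPRC, tagged reads of the list came to 62.1, 34.4 and 12.2 CPM. Of this ATMG00020 held 2.55, 0.819 and 0.810 and ATMG01390 0.851, 0.819 and 0. Most tagged reads of the list thus came from other members, whose excess was not tested. The low list value need not hold for them. Selection for poly(A) RNA applies to all 6 libraries, and these levels are those of transcripts that passed it.

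Gene by gene, 10 genes with the largest excess were picked out. Of these ATG8C, RBP45A, AT4G13170 and CB5-B had a mean under 50 CPM without ADPRC and passed the filter only through the libraries with ADPRC, where they were high, so that their place among the 10 rests on that filter. Of all genes tested, 122 passed in this way, of which 50 were called higher and 9 lower, and 96 passed only through the libraries without ADPRC, of which 0 were higher and 60 lower. ATG8C (AT1G62040), for a ubiquitin-like protein of the autophagosome membrane, had 259.8, 342 and 545 tagged CPM with ADPRC against 17.9, 32.6 and 40.1 CPM of all reads without it (log2 excess 3.53, SE 0.35, adjusted p = 2.91e-05), and no tagged read without ADPRC. AT5G22580, which passed by its abundance alone, had 1847, 1904 and 1296 against 174, 217 and 133 (log2 excess 3.25, SE 0.23, adjusted p = 3.46e-06). All 10 were picked from called genes whose groups did not overlap, so their lack of overlap was set by the choice. RBP45A, an RNA-binding protein gene, had 128, 149 and 184 against 17.9, 17.3 and 33.7 (log2 excess 2.63, adjusted p = 0.000121). CB5-B, for a cytochrome b5, had 302, 275 and 235 against 35.9, 53.8 and 49.6 (log2 excess 2.48, adjusted p = 3.45e-05). AT3G62550 had 171, 549.6 and 401 against 33.3, 123 and 38.0, with replicate 2 high on both sides (log2 excess 2.56, adjusted p = 0.00189). Of the 10 highest genes, 5 are on the ribosomal lists: AT4G14320, AT1G48830, AT3G04840, RPL24A and AT4G13170, the last with 217, 259 and 241 against 30.8, 40.3 and 45.3. The 40S and 60S lists held 72 and 105 of the 2523 genes tested, of which 20 and 26 were called higher and 13 and 22 lower. In libraries with ADPRC, 58.3% ± 9.96 of the reads of AT4G14320 and 57.3% ± 5.74 of those of ATG8C carried the tag (SD, n = 3).

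At the other end stood abundant transcripts with next to no tag. AT5G53140 had 2023, 2698 and 2773 CPM without ADPRC, and 1 tagged read among the 710098 of the libraries with ADPRC, 1774-fold less than its abundance (95% exact Poisson interval 318 to 70060.3, counting error only). GUN5, for a subunit of the magnesium chelatase of chlorophyll synthesis, had 715, 659 and 742 and 2 tagged reads, 250.5-fold less than its abundance (95% exact Poisson interval 69.3 to 2068, counting error only). GLU1, for the ferredoxin-dependent glutamate synthase that reassimilates photorespiratory ammonia, had 374, 394 and 350.1 and 3 tagged reads, 88.2-fold less than its abundance (95% exact Poisson interval 30.2 to 428, counting error only). All of these were abundant in every library without ADPRC. HA2, a proton pump of the plasma membrane, had 300.0, 242 and 288 and 2 tagged reads, 98.2-fold less than its abundance (95% exact Poisson interval 27.2 to 811, counting error only). AT2G43150 at 295, 221 and 349 and DEG14 at 164, 171 and 119 had no tagged read, at least 68.2-fold and 35.8-fold less than their abundance against the same floor. AT3G06355 at 87.2, 217 and 147 had none either, at least 35.6-fold less. It is listed as a long noncoding RNA and overlaps another gene, from which its reads may come. AT2G24060 had 10.7, 35.3 and 28.7 tagged CPM against 1387, 2757 and 2250.0 (log2 excess -6.33, SE 0.38, adjusted p = 1.84e-06), and CLPC1, a chaperone of the chloroplast stroma, 3.56, 3.93 and 28.7 against 469, 517 and 536 (log2 excess -5.49, adjusted p = 2.08e-05). Of all genes tested, 13 had no tagged read with ADPRC and all of them were called lower. Where strand was not used in counting, reads of a gene and of a gene it overlaps cannot be told apart, which among the genes named touches CAB1, LHB1B2, LHCB2.3, Lhca5, PSAD-2, PSAE-1, PSAE-2, PSAG, PSAH-1, PSAH2, PSBP-1, PSBR, FD1, FNR1, RCA, PDE345, GOX1, GLDP1, GLU1, CAT2, AT5G60390, FBR12, AT1G48830, AT4G13170, RPL24A, MTO3, MT3, DELTA-TIP, PYK10, UBQ14, CB5-B, AT2G24060, QWRF4, AT3G06355 and ATAF1. Ribosomal protein, actin and ubiquitin genes also have close copies, between which reads may be split.

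The excess was lower in longer genes. Across 2516 genes with an annotated span (introns included), Spearman's rho between excess and span was -0.491, against 0.0967 between excess and abundance over the 2523 genes tested, as a description across genes. The median excess was 0.25 in the 75 genes under 750 bases and 0.07 in the 494 of 1000 to 1500 bases. It was -0.59 in the 789 of 2000 to 3000 bases and -2.59 in the 140 over 4000 bases, of which 118 were called lower and 1 higher. The median span was 1930.5 bases over all genes and below that in each of the 11 lists above 0, such as 1133 in photosystem I. It was above that in 9 of the 13 lists below 0, such as 3318 in the chaperones, while the mitochondrion-encoded list, also among the 13, had no annotated span. The light-harvesting list lay below 0 with a median span of 1419.

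Relative to a trend on abundance and gene span, 624 of 2516 genes (24.8%) were called higher and 396 (15.7%) lower. Rubisco's small subunit then had 4 higher and 0 lower of 4, photosystem II 7 higher and 0 lower of 13 and photosystem I 5 higher and 2 lower of 12. The light-harvesting list had 3 higher and 7 lower of 19, with CAB3 at -2.42 and CAB1 at -1.60. The methionine cycle had 0 higher and 7 lower of 8 and the chaperones 0 higher and 6 lower of 8. Calvin cycle enzymes then had 1 higher and 5 lower of 18, photorespiration 5 higher and 4 lower of 17 and cytosolic glycolysis 2 higher and 3 lower of 10, and RCA moved from -1.38 to 0.20, no longer called. The 40S and 60S lists had 22 higher and 11 lower of 72 and 30 higher and 16 lower of 105. The proteasome turned from 0 higher and 2 lower to 6 higher and 0 lower of 16, its median from -0.09 to 0.47, and antioxidant enzymes from 0 and 2 to 2 higher and 0 lower of 6, their median from -0.41 to 0.42. Myrosinase and ER body genes had 0 higher and 1 lower of 8, actin and tubulin genes 2 higher and 3 lower of 15, translation factors 3 higher and 3 lower of 18 and aquaporins 3 higher and 2 lower of 15. Of the genes named above as lower, PSBO1 (-0.26), FNR1 (-0.41), ACT2 (-0.22), PIP1B (-0.38) and PYK10 (-0.15) were no longer called either. The part that read length or RNA integrity has in the excess was not tested, since the tables hold no read lengths.

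**Figure D4:**
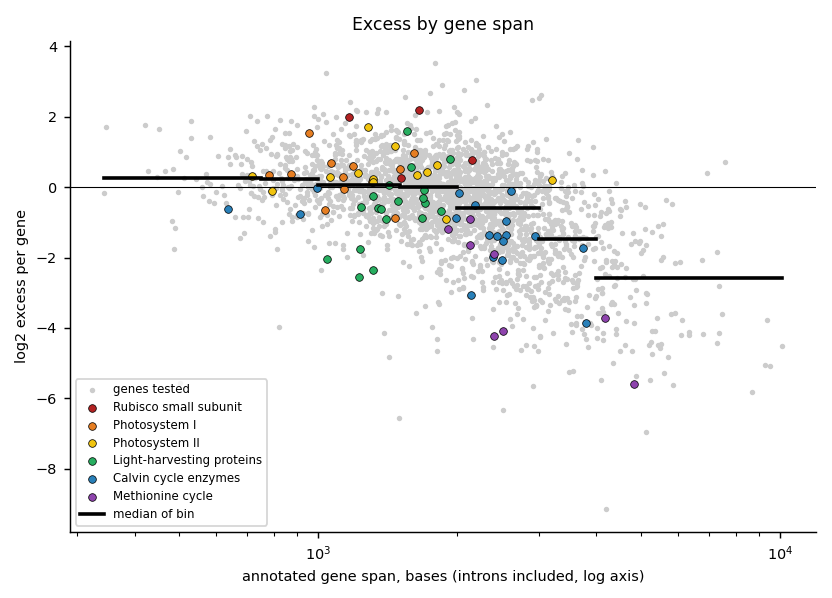
Each point is 1 of 2516 genes, by its annotated span in bases (log axis) and its log2 excess, with 6 lists in colour, and black bars mark the median of each span bin. The bars go from 0.25 under 750 bases to -2.59 over 4000 bases, and the 4 lowest light-harvesting genes, all copies of LHCB1, lie well below the bar of their bin.

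Whether the whole enriched library shifted with ADPRC was asked of all reads, tagged or not, in the same 6 libraries. These values share the libraries without ADPRC with the excess above and include the tagged reads, so the comparisons are not independent. Of 5519 genes at a mean of 20 CPM or more, 50 (0.906%) were higher and 17 (0.308%) lower with ADPRC (limma, adjusted p under 0.05). With the replicate number as a block it was 229 higher and 117 lower, and with replicate 2 of the ADPRC libraries left out it was 23 and 10. ATG8C had 115, 111 and 143 CPM with ADPRC and 17.9, 32.6 and 40.1 without it (log2 fold change 2.05, SE 0.27, adjusted p = 0.00126). AT3G04840 had 645, 683 and 737 against 228, 180.5 and 312 (log2 fold change 1.55, SE 0.19, adjusted p = 0.000841), AT5G22580 744, 684 and 374 against 174, 217 and 133, and AT4G14320 412, 499 and 364 against 113, 149.8 and 196. All of them were picked from called genes whose groups did not overlap, so their lack of overlap was set by the choice. The transcription factor gene ATAF1, also among the 8 highest, had 66.4, 124 and 107 against 56.4, 23.0 and 27.4 (log2 fold change 1.51, SE 0.31, adjusted p = 0.0263). The choice also asked for a mean of at least 50 CPM in the higher group. ATG8C, RBP45A, AT4G13170 and ATAF1 met this only through the libraries with ADPRC, where they were high. Of the 8 lowest, QWRF4 and MED21, among others, met it only through the libraries without ADPRC.

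Few members of the lists passed this test in the fit without the replicate block, and members were not counted by list with the block. RBCS3B, with 37401, 34493 and 27979 CPM with ADPRC, and RBCS2B, with 15200.1, 11956 and 12378, were higher (log2 fold change 0.93 and 0.83, adjusted p = 0.00186 and 0.00568), while no member of photosystem I or II was called. The 40S list had 2 of 78 higher and the 60S list 4 of 114, with none lower. The list of cold response and dehydrin genes had 1 of 7, CCR1, an RNA-binding protein gene. Over all genes tested on all reads 0.906% were called higher and 0.308% lower. Lower were LHB1B2 of the light-harvesting list, PDE345 of the Calvin cycle list and ATMG00020 of the mitochondrion. AT5G53140 was lower too, with 897, 818 and 746 against 2023, 2698 and 2773 (log2 fold change -1.60, SE 0.16, adjusted p = 0.000134), as were AT2G24060 and its overlapping neighbour QWRF4, whose reads cannot be told apart with certainty, and MED21, a Mediator subunit gene, with 64.7, 44.2 and 29.2 against 144, 134 and 160.3. With the tagged reads taken out of all 6 libraries, 15 genes were higher and 9 lower. Still higher were RBP45A, AT3G04840 and CCR1, at a log2 fold change of 1.55, 1.01 and 0.95 (adjusted p = 0.0301, 0.0301 and 0.0276), and ATG8C at 1.14 and RBCS3B at 0.35 no longer passed (adjusted p = 0.170 and 0.303).

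**Figure D5:**
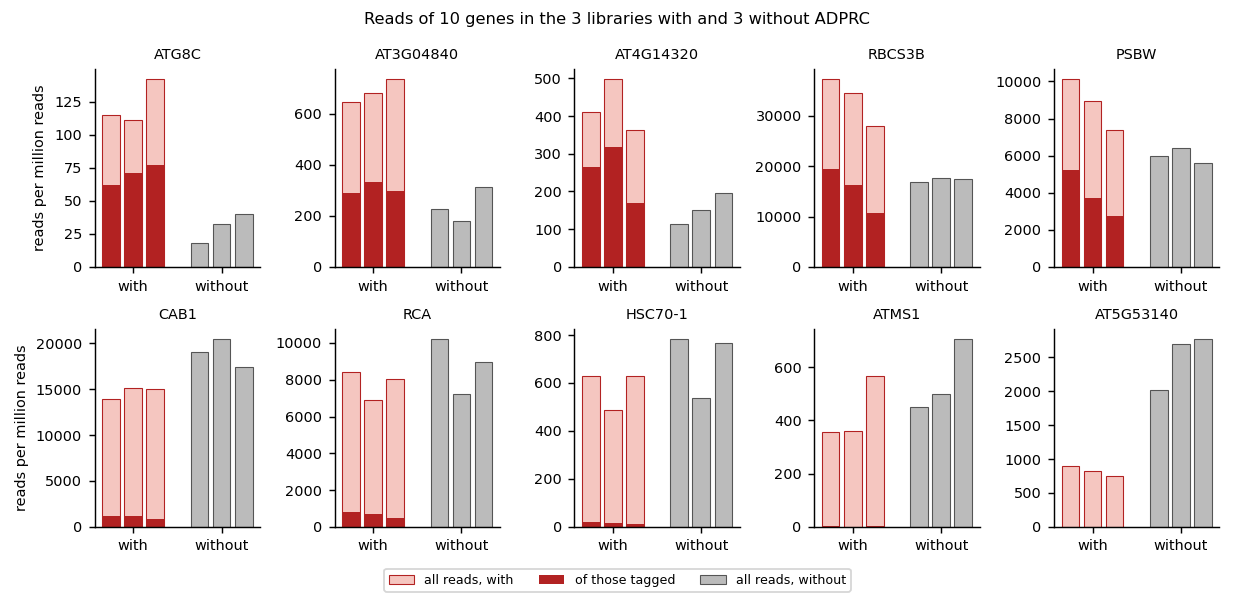
Bars are CPM of all reads of 10 genes in each of the 3 libraries with ADPRC (left, the tagged part dark) and each of the 3 without it (right), with a linear axis from 0 for each gene. ATG8C, AT3G04840, AT4G14320 and RBCS3B have more reads in every library with ADPRC than in any without it, and AT5G53140 has fewer. All of these but RBCS3B were picked from genes whose groups did not overlap.

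On the deposited scale, where a tagged value is relative to all reads of its library, 7384 of 7634 genes (96.7%) had more tagged RNA with ADPRC and 0 less. The filter, a value above 0 in 3 of the 6 libraries, was mostly passed through the libraries with ADPRC, so this share is largely set by it, and of all 14817 genes with a tagged read 7324 were higher. For the small subunit of Rubisco that was 4 of 4 genes, for the light-harvesting list 21 of 21, for the 40S list 80 of 80 and for the methionine cycle 5 of 7.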

How the data were processed

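Nanopore direct RNA reads of 6 libraries were compared, 3 with and 3 without ADPRC, grouped by their labels. Per gene, the authors deposited 1 table for tagged reads and another for all reads. Their values are named tpm per the file headers, but they were CPM: each was a whole number of reads (within 0.01 reads, 100% of 38774 tagged and 177708 all-read values above 0), relative to all reads of the library in both deposited tables. The sources used here do not give the aligner, genome build, annotation, use of strand or rule for calling a tag. One row that names no gene held 1 read and was left out. Depth sets the precision, most of all in the libraries without ADPRC, whose tagged reads are few.

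For the excess, tagged values with ADPRC and all-read values without ADPRC were each rescaled to CPM over genes. Tests used two-sided moderated statistics of limma 3.58.1 (eBayes with a mean trend after lmFit), adjusted by Benjamini-Hochberg over all genes tested at a threshold of 0.05, in R 4.3.3 on log2(value + pseudocount), with a pseudocount of 3.06 for the excess and 0.953 otherwise, so fold changes of low genes are understated. Genes needed a value above 0 in 3 of 6 libraries (tagged), a mean of 20 (all reads) or a mean of 50 (excess). The scripts were tested on simulated data. For the excess, 43 of 100 genes given a log2 change of 1 were recovered, and 99 of 100 given a change of 2. For all reads it was 59 and 100 of 100. A gene not called may thus still differ. The count test on recovered reads (edgeR 4.0.16) called 6491 genes higher for tagged reads, 54 higher and 14 lower for all reads, and 424 and 883 for the excess. DESeq2 1.42.0 was another alternative.

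Lists were made from general knowledge by locus number, and members, lists and tests were chosen with earlier results of these data known. Of 678 list members 308 have a name in the RefSeq gene table of TAIR10.1, which matched 22102 of 22337 IDs and gave names, overlaps and gene spans. No coordinates are printed, since the build of the files is not named. Named genes were the 10 with the largest excess in each direction and the 8 with the largest all-read change among called genes whose groups did not overlap, plus the 3 most abundant of each list. For the all-read change the higher group also needed a mean of at least 50 CPM. Other members named were chosen after their values were seen. Replicate numbers pair the samples by the data: deviations of libraries of the same number correlated at 0.341, 0.294 and 0.255, where other pairs reached at most -0.00690. Replicates of a group differed by 2.28 to 5.81 times the sampling noise (chi-square per gene).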

Additional observations from a re-analysis of the deposited data

How the results depend on the processing

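The 6 libraries limit every call, and 81 of the genes tested for excess had 3 or fewer tagged reads. Tagged reads centred on genes tagged in all 6 libraries gave 54 genes higher and 7114 lower. That scaling sets the median of those genes alone to 0 in each library, and the median log2 change over all 7634 genes was then -3.81. Without that centring, leaving out 1 library gave 7236 to 7344 higher and 0 to 3 lower. For all reads the counts were 25 higher and 9 lower with no filter, 15 and 9 with tagged reads taken out, 229 and 117 with the replicate block, and 9 lower with overlapping genes left out. Leaving out 1 library gave 23 to 42 higher and 8 to 17 lower: 23 and 10 with replicate 2 of the ADPRC libraries left out, 31 higher with replicate 3 of them left out, 11 lower with replicate 1 of the libraries without ADPRC left out, and 28 and 8 with replicate 3 of those left out. For the excess they were 253 and 444 at a mean of at least 100, 1837 lower at a mean of at least 20, 617 higher with abundance from unenriched libraries, 793 and 499 relative to a trend on abundance, 624 and 396 on abundance and gene span, and 591 and 399 on gene span. Chosen after seeing the data, a filter of 50 on the libraries without ADPRC gave 330 and 908, and on unenriched libraries 318 and 890. Leaving out 1 library gave 283 to 430 higher and 609 to 888 lower. The replicate block gave 434 and 947 for the excess and 7410 higher for tagged reads, and no named gene lost its call under it.

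Signs turned for RPL12-A (0.0230) and GAPC2 (0.0258) relative to the trend on abundance, and relative to abundance and span for RCA (0.20), GAPC2 (0.87), TPI (0.81), FSD1 (0.35), CAT3 (0.48) and APX1 (0.53). On span alone they turned for GAPC2 (0.65), TPI (0.71), FSD1 (0.11) and CAT3 (0.28), and with abundance from unenriched libraries for COR47 (0.95). The median of members reversed the chloroplast ribosomal (-0.10), lipid transfer (-0.0175) and histone (-0.14) lists, members with a name reversed lipid transfer (-0.000853) and histones (-0.0484), and unenriched abundance reversed cold response and dehydrin genes (0.81). The cause was not tested. The trend on protein length was not run.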
